A study of Mus musculus with 18 samples.

Results

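The acute phase and complement factors described here are 9 genes for secreted proteins of innate defence: Saa3, Lbp, Hp, Lcn2 and Ptx3 among the acute phase proteins, and C3, C4b, Cfb and Serping1 in the complement system. They are 9 of the 16528 genes named in the array annotation, were grouped by function, and were selected on earlier results of these same arrays, their levels in the 3 genotypes included. Their differences between genotypes are therefore given as a description, with standard errors and without p-values.

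The arrays measured total RNA of mouse embryonic fibroblasts, cultured mesenchymal cells, of 3 genotypes: AGO2 -/- (AGO2 null), Dicer -/- (Dicer null) and wild type. AGO2 is the Argonaute protein that carries small RNAs to their targets, and Dicer is the nuclease that makes mature microRNAs. Each genotype had 3 Affymetrix exon arrays, and each of the 9 arrays was deposited as a gene-level and an exon-level sample, 18 samples in all. The cultures were kept for 3 days with 7% fetal calf serum in the medium and no other agent is named, and their RNA was amplified with a NuGEN Applause kit. The Dicer null and wild-type cells came from one laboratory and the AGO2 null cells from another. Genotype, cell line and source therefore cannot be told apart for the AGO2 null cells. For the Dicer null cells, genotype and cell line cannot be told apart either. The labels call the replicates biological without naming separate lines or embryos, so errors and p-values cover only how these samples vary, and part of that variation may be technical. The number of arrays, 3 a group, limits the precision.

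Acute phase proteins are released mainly by the liver during inflammation, when interleukin-6 acting through STAT3 and interleukin-1 or tumour necrosis factor acting through NF-kappa-B and C/EBP factors switch their genes on. Fibroblasts and other stromal cells make several of them locally. Complement is a cascade of plasma proteases whose routes meet in the cleavage of C3, and fragments of C3 tag microbes. The classical and lectin routes reach C3 through C4 and C2, the alternative route through factor B, and C1 inhibitor holds the first proteases in check.

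The 9 genes fell into several orders of level across the genotypes. Saa3 and C3 were highest in AGO2 null cells, intermediate in Dicer null cells and lowest in wild-type cells. Lbp and Serping1 were highest in Dicer null cells and lowest in wild-type cells. Hp was higher in both null lines by a similar amount, Ptx3 was slightly higher in AGO2 null and much lower in Dicer null cells, and Cfb was slightly higher in AGO2 null cells than in both other lines. Lcn2 and C4b had overlapping values in all 3 genotypes.

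Of the 7 members with a gene-level row of their own, 6 were called higher in AGO2 null than in wild-type cells (limma, Benjamini-Hochberg adjusted p under 0.05 over all 23332 rows), where 11.8% of all rows were called higher and 9.17% lower. Against the same 3 wild-type samples, 4 of the 7 were called higher and 1 lower in Dicer null cells, where 11.2% of all rows were called higher and 15.7% lower. Between AGO2 null and Dicer null cells 3 of the 7 were called higher and 2 lower in AGO2 null cells, with 16.9% and 9.45% of all rows called. The choice of the members used these contrasts, so nothing is read from these shares.

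RefSeq promoter sequences were at hand for 4 members, Saa3, Lcn2, Ptx3 and C3, which include the widest difference from wild type among the 9 genes (Saa3) and a gene with none beyond its spread (Lcn2). The 250 bases before each annotated start in GRCm38.p6 are printed 5′ to 3′ on the gene's strand, with capitals where a motif matched. They lie at chr7:46715677-46715926 on the minus strand for Saa3, chr2:32387740-32387989 on the minus strand for Lcn2, chr3:66219637-66219886 on the plus strand for Ptx3 and chr17:57228137-57228386 on the minus strand for C3.
Saa3: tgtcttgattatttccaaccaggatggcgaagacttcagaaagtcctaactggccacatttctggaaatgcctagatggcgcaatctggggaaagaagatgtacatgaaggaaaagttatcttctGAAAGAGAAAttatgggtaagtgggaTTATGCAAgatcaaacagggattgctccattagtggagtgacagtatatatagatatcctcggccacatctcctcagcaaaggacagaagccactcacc
Lcn2: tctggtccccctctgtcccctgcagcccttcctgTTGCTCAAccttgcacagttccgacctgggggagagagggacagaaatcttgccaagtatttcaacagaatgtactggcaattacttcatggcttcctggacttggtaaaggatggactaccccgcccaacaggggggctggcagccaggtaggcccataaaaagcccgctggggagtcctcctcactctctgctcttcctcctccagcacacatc
Ptx3: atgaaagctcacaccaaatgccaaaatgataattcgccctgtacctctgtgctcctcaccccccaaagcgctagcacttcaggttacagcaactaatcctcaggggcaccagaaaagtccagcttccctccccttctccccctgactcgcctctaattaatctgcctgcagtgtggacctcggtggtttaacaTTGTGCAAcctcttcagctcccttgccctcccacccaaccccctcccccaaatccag
C3: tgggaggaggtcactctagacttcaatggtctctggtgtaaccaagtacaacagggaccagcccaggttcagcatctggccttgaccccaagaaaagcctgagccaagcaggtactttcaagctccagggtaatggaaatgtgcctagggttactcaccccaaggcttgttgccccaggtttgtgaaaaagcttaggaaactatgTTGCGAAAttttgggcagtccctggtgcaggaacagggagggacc

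The motifs searched, on both strands, were the C/EBP motif TTGCNNAA, the STAT motif TTCNNNGAA, the interferon-response motif GAAANNGAAA and the NF-kappa-B motif in its usual degenerate form. The C/EBP letters were present in all 4 windows: as TTATGCAA 99 to 92 bases before the start of Saa3, TTGCTCAA 216 to 209 bases before that of Lcn2, TTGTGCAA 57 to 50 bases before that of Ptx3 and TTGCGAAA 45 to 38 bases before that of C3. Of 32851 promoter windows of the same length in the table, 9.56% held them. The interferon-response letters occurred in the Saa3 window alone, as GAAAGAGAAA 125 to 116 bases before the start, against 2.98% of all windows. The NF-kappa-B letters (3.9% of all windows) and the STAT letters (7.02%) did not occur in these 4 windows. The window of Saa3 lies inside the gene's annotated span, downstream of its outermost start. A match is a match of letters only. Binding was not measured, and the part of these motifs in the differences of the members was not tested.

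On the arrays, Ago2 stood at log2 levels of 6.77 ± 0.14 (SD, n = 3) in AGO2 null samples, 9.14 ± 0.10 in Dicer null samples and 8.23 ± 0.02 in wild-type samples, and Dicer1 at 9.40 ± 0.01, 8.37 ± 0.04 and 9.18 ± 0.02, so each targeted gene was lowest in the line labelled null for it. The rows cover whole genes and can include probes outside a deletion. AGO2 null replicate 2 stood apart: 343 of 14996 named rows (2.29%) lay more than 0.5 log2 above both other AGO2 null samples, against 0.247% to 0.52% in the other 8 samples. Leaving it out shifted the members' differences from wild type by -0.08 to 0.04. Sample medians lay between 6.28 and 6.37 at the gene level and between 6.93 and 7.1 at the exon level, on the log2 scale in which all levels below are given. The files carry no detection measure, and levels of different genes are not comparable since their probes differ.

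Saa3 encodes a serum amyloid A protein that mouse macrophages, adipocytes and fibroblasts make outside the liver. Its levels were 11.49, 11.67 and 11.41 in AGO2 null, 7.74, 7.74 and 7.56 in Dicer null and 5.32, 5.54 and 5.63 in wild-type cells. The 3 groups were widely separated, with no overlap. The difference from wild type was 6.02 ± 0.10 (SE) in AGO2 null cells, a 65.1-fold difference, and 2.18 ± 0.10 in Dicer null cells, a 4.53-fold difference; AGO2 null exceeded Dicer null cells by 3.84. Without AGO2 null replicate 2 the first was 5.95. The wild-type values lay below the median of all rows in their samples, and with an offset of 50 added to the linear values, which weighs down low signals, the differences of Saa3 were 4.97 and 1.42.

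The neighbouring serum amyloid genes on chromosome 7 were examined as paralogs. The exon-level probe set annotated with Saa1 alone, an acute phase amyloid of the liver, read 11.39, 11.58 and 11.35 in AGO2 null, 8.29, 8.12 and 8.27 in Dicer null and 4.37, 4.11 and 6.09 in wild-type cells, the same order as Saa3. One of the 8 probe sets shared by Saa1 and Saa2 was called, with 12.10, 12.15 and 12.06, then 9.11, 9.10 and 9.10, then 6.19, 6.55 and 6.86 in the same order of groups. The single probe set of Saa2 alone was not called, with differences from wild type of 0.98 in AGO2 null and -0.06 in Dicer null cells. Saa4, the constitutive member of the family, stood at 3.92 ± 0.17 (AGO2 null), 3.63 ± 0.14 (Dicer null) and 3.73 ± 0.05 (wild type) and was not called in any comparison at the gene level. Serum amyloid transcripts are alike in sequence, so signal on a probe set can come from a paralog.

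Lbp encodes the lipopolysaccharide-binding protein, which hands bacterial lipopolysaccharide to CD14 and the TLR4 receptor. Its levels were 9.79, 9.68 and 9.79 in AGO2 null, 10.88, 10.86 and 10.97 in Dicer null and 6.18, 6.39 and 6.16 in wild-type cells. Every sample of both null lines lay far above every wild-type sample, and the Dicer null samples lay above the AGO2 null samples. The differences from wild type were 3.51 ± 0.07 (11.4-fold) in AGO2 null and 4.66 ± 0.07 (25.3-fold) in Dicer null cells, and AGO2 null minus Dicer null was -1.15. With the offset of 50 the differences of Lbp from wild type were 2.86 and 3.96.

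Hp encodes haptoglobin, which binds free haemoglobin in plasma. It read 7.48, 7.51 and 7.78 in AGO2 null, 7.59, 7.63 and 7.45 in Dicer null and 5.57, 5.33 and 5.64 in wild-type cells. The null lines overlapped each other and neither overlapped wild type. The differences from wild type were 2.08 ± 0.11 (4.21-fold) and 2.04 ± 0.11 (4.12-fold), and the null lines differed by 0.03 ± 0.11. Summarised by the median of its 7 exon-level probe sets, Hp differed from wild type by 1.35 in AGO2 null and 1.20 in Dicer null cells.

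Lcn2 encodes lipocalin 2, which withholds iron from bacteria by binding their siderophores. It read 5.55, 5.78 and 5.51 in AGO2 null, 5.55, 5.41 and 5.43 in Dicer null and 5.55, 5.68 and 5.35 in wild-type cells. All 3 groups overlapped. The differences from wild type, 0.08 ± 0.10 in AGO2 null and -0.07 ± 0.10 in Dicer null cells, were smaller than the spread within groups, and all values lay below the median of all rows in their samples.

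Ptx3 encodes the long pentraxin 3, a soluble pattern receptor that stromal and myeloid cells secrete and that binds complement components. Its levels were 9.22, 9.05 and 9.15 in AGO2 null, 6.87, 6.77 and 6.49 in Dicer null and 8.55, 8.43 and 8.49 in wild-type cells. The groups did not overlap, and Ptx3 was the 1 member called lower in a null line than in wild type. AGO2 null exceeded wild-type cells by 0.64 ± 0.10 (1.56-fold), and Dicer null minus wild type was -1.78 ± 0.10, 3.44-fold lower. The null lines were 2.43 apart. By the median of 6 exon-level probe sets the difference of Dicer null cells was -1.10.

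**Figure D1:**
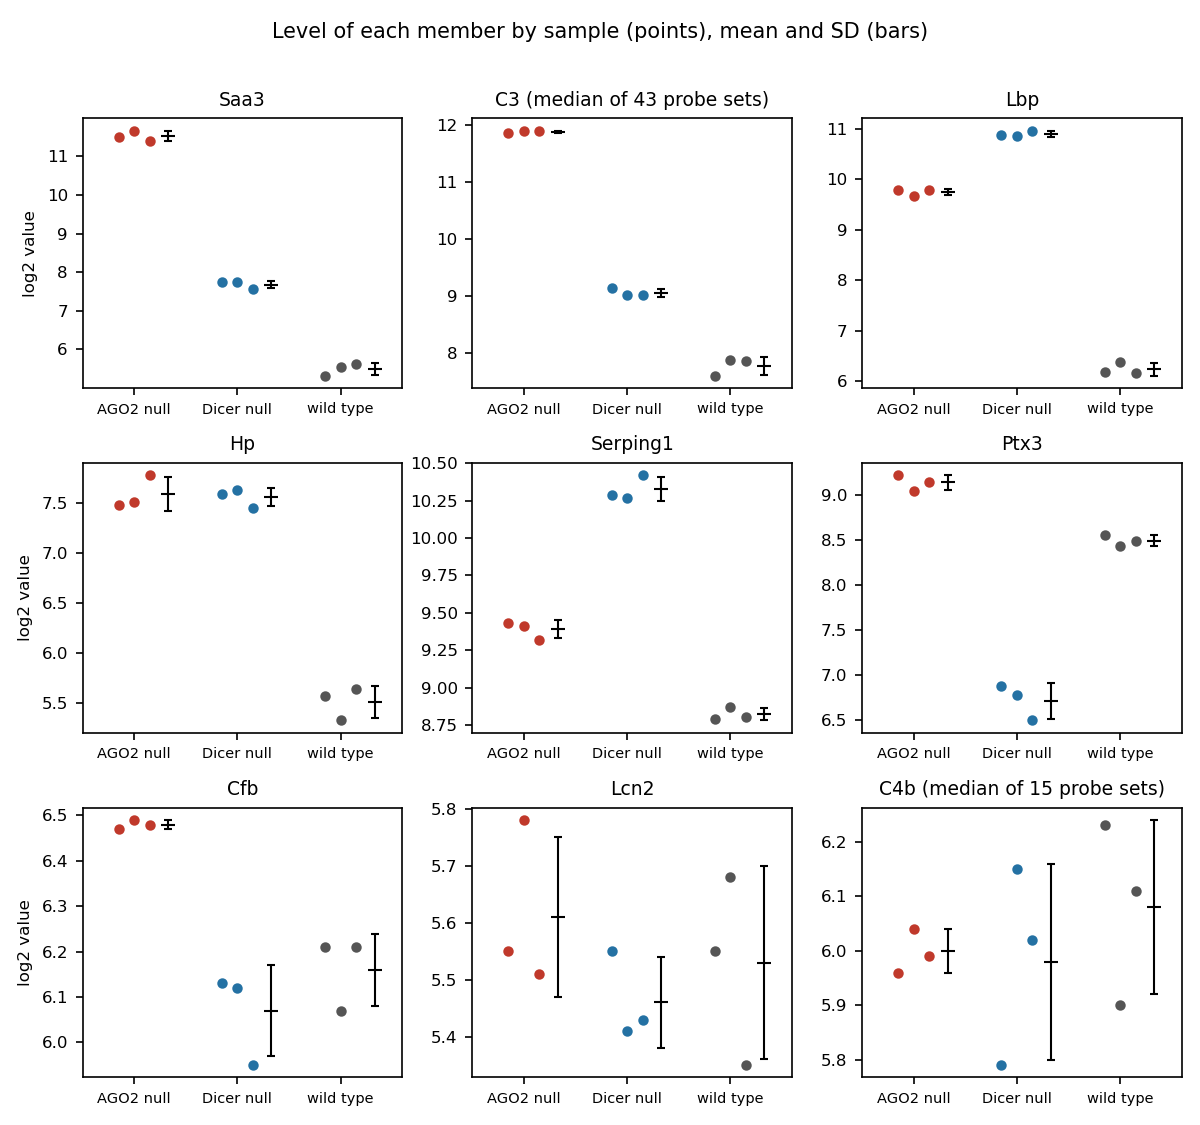
Log2 level (vertical axes, each with its own range) of the 9 genes in the 3 AGO2 null, 3 Dicer null and 3 wild-type samples (points), with the mean and SD beside them (bars). Saa3, C3, Lbp, Serping1 and Ptx3 form 3 separate groups of samples, Hp separates both null lines from wild type, and Lcn2 and C4b overlap throughout; the axes of Cfb, Lcn2 and C4b span less than 1 log2 unit.

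C3, the convergence point of all complement routes, had no gene-level row under its symbol and was summarised by the median of its 43 exon-level probe sets in each sample. The medians were 11.86, 11.89 and 11.90 in AGO2 null, 9.13, 9.01 and 9.01 in Dicer null and 7.60, 7.87 and 7.85 in wild-type cells. The 3 groups were separate, in the same order as for Saa3. The differences from wild type were 4.11 ± 0.08 (17.2-fold) in AGO2 null and 1.28 ± 0.08 (2.43-fold) in Dicer null cells, with SE from the spread of these 9 medians, and the null lines were 2.83 apart.

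C4b encodes complement C4, the classical-route protein that joins C2 to form a C3-cleaving enzyme. Its gene-level row also carries the symbol of the near-identical C4a and read 5.82 ± 0.04, 5.84 ± 0.04 and 5.89 ± 0.04 in AGO2 null, Dicer null and wild-type cells. The medians of the 15 probe sets annotated with C4b alone were 5.96, 6.04 and 5.99 in AGO2 null, 5.79, 6.15 and 6.02 in Dicer null and 6.23, 5.90 and 6.11 in wild-type cells. The groups overlapped on both measures, and the C4b medians differed from wild type by -0.08 ± 0.12 and -0.10 ± 0.12. Signal of C4b and C4a cannot be told apart on the shared row.

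Cfb encodes complement factor B, the protease of the alternative route, and lies near C4b and C4a on chromosome 17. It read 6.47, 6.49 and 6.48 in AGO2 null, 6.13, 6.12 and 5.95 in Dicer null and 6.21, 6.07 and 6.21 in wild-type cells. The AGO2 null samples lay above the others, while Dicer null and wild-type samples overlapped. The AGO2 null difference was small, 0.32 ± 0.06 from wild type (1.24-fold) and 0.41 from Dicer null cells. The Dicer null difference, -0.10 ± 0.06, was 0.08 when Cfb was summarised by the median of its 22 probe sets, so it has no settled sign.

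Serping1 encodes C1 inhibitor, which inactivates the proteases of the classical and lectin routes and of the contact system. It read 9.43, 9.41 and 9.32 in AGO2 null, 10.29, 10.27 and 10.42 in Dicer null and 8.79, 8.87 and 8.80 in wild-type cells. The groups did not overlap and stood in the same order as for Lbp. The differences from wild type were 0.57 ± 0.06 (1.48-fold) in AGO2 null and 1.51 ± 0.06 (2.85-fold) in Dicer null cells, and AGO2 null minus Dicer null was -0.94.

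The exon-level table resolves each gene into probe sets, groups of a few probes mostly within 1 exon. Of the 134 that carry the symbol of 1 member alone, 89 were called higher in AGO2 null than in wild-type cells and the other 45 were not called, against 9.07% of all 229581 probe sets called higher and 6.35% lower. In Dicer null cells 75 were called higher and 5 lower, against 8.93% and 12.2%. Between the null lines 59 were called higher and 27 lower in AGO2 null cells, against 12.6% and 6.08%; quantile normalization and median centring moved the median of all probe sets in that comparison by -0.14 and -0.15. These arrays and contrasts are those the members were chosen on, so the counts describe how evenly each gene's signal was spread.

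All 43 probe sets of C3 were called higher in AGO2 null cells, by 2.13 to 5.05 with a median of 4.11, and 40 were called higher in Dicer null cells, by a median of 1.16 over all 43. The smallest Dicer null difference, 0.05, was on probe set 5284925, which read 9.39, 9.48 and 9.51 in AGO2 null, 6.56, 6.94 and 6.67 in Dicer null and 6.84, 6.78 and 6.40 in wild-type cells. All 4 probe sets of Saa3 were called higher in both null lines, by 4.66 to 6.54 in AGO2 null and by 1.34 to 3.51 in Dicer null cells. In both genes every probe set was also called higher in AGO2 null than in Dicer null cells.

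For Lbp, 19 of 20 probe sets were called higher in each null line, and the same number were lower in AGO2 null than in Dicer null cells. The differences ran from 0.27 to 5.28 in AGO2 null and from 0.47 to 6.20 in Dicer null cells. The remaining probe set, 5222229, read 6.22, 6.01 and 6.33 in AGO2 null, 6.35, 6.36 and 6.46 in Dicer null and 6.19, 5.67 and 5.89 in wild-type cells. The steepest, 4567066, read 9.66, 9.54 and 9.82, then 10.52, 10.60 and 10.66, then 4.30, 4.06 and 4.83 in the same order of groups. The size of the difference thus varied widely within Lbp, while Dicer null means exceeded AGO2 null means and these exceeded wild-type means on all 20 probe sets.

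Hp was uneven as well, with 5 of 7 probe sets called higher in AGO2 null and 4 of 7 in Dicer null cells. Probe set 4878719 was flat, at 7.46, 7.51 and 7.59 in AGO2 null, 7.81, 7.54 and 7.86 in Dicer null and 7.61, 7.68 and 7.41 in wild-type cells. Probe set 5413680 read 8.78, 8.60 and 9.01, then 8.57, 8.79 and 8.69, then 4.72, 5.77 and 5.84, a difference from wild type of 3.35 in AGO2 null and 3.24 in Dicer null cells. No probe set of Hp separated the null lines by more than 0.22 in either direction. For Serping1, 6 of 9 probe sets passed as higher in AGO2 null and 8 of 9 in Dicer null cells. Its probe set 4970514, called in neither line, differed from wild type by -0.22 and 0.10.

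For Ptx3, all 6 probe sets had a higher mean in AGO2 null cells, by 0.42 to 2.44, and 3 of them were called. In Dicer null cells 3 were called lower and the 6 differences ran from -2.49 to 0.29. Probe set 4440131 carried the lowest Dicer null difference, with 11.85, 11.76 and 11.75 in AGO2 null, 8.47, 8.43 and 7.93 in Dicer null and 10.81, 10.72 and 10.78 in wild-type cells. Probe set 5121880 went against the others in Dicer null cells, where it lay 0.29 above wild type and was not called, with 7.84, 7.72 and 7.63, then 7.86, 7.42 and 7.43, then 7.36, 7.20 and 7.27. Between the null lines, 5 of the 6 were called higher in AGO2 null cells.

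For Cfb, 8 of 22 probe sets passed as higher in AGO2 null cells, by up to 1.25, and 2 were called lower in Dicer null cells. Probe set 4711064 stood out, with 7.34, 7.19 and 6.91 in AGO2 null, 5.14, 5.52 and 4.62 in Dicer null and 5.82, 5.67 and 6.24 in wild-type cells. The median difference of the 22 probe sets was 0.36 in AGO2 null and 0.00 in Dicer null cells. The 8 probe sets of Lcn2 differed from wild type by -0.29 to 0.53 in AGO2 null and by -0.54 to 0.34 in Dicer null cells, with medians of 0.04 and -0.02.

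For C4b, 1 of the 15 was called higher in AGO2 null cells, 4576891, with 6.99, 7.04 and 7.10 in AGO2 null, 6.58, 6.86 and 6.79 in Dicer null and 6.56, 6.49 and 6.39 in wild-type cells. Of the 31 probe sets that C4b shares with C4a, 1 was called lower in AGO2 null cells. That probe set, 4868663, read 5.94, 5.61 and 5.30 in AGO2 null, 7.31, 7.51 and 7.59 in Dicer null and 7.11, 7.42 and 7.88 in wild-type cells, a difference from wild type of -1.85. The median over the 31 shared probe sets was -0.05 in AGO2 null and -0.04 in Dicer null cells.

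**Figure D2:**
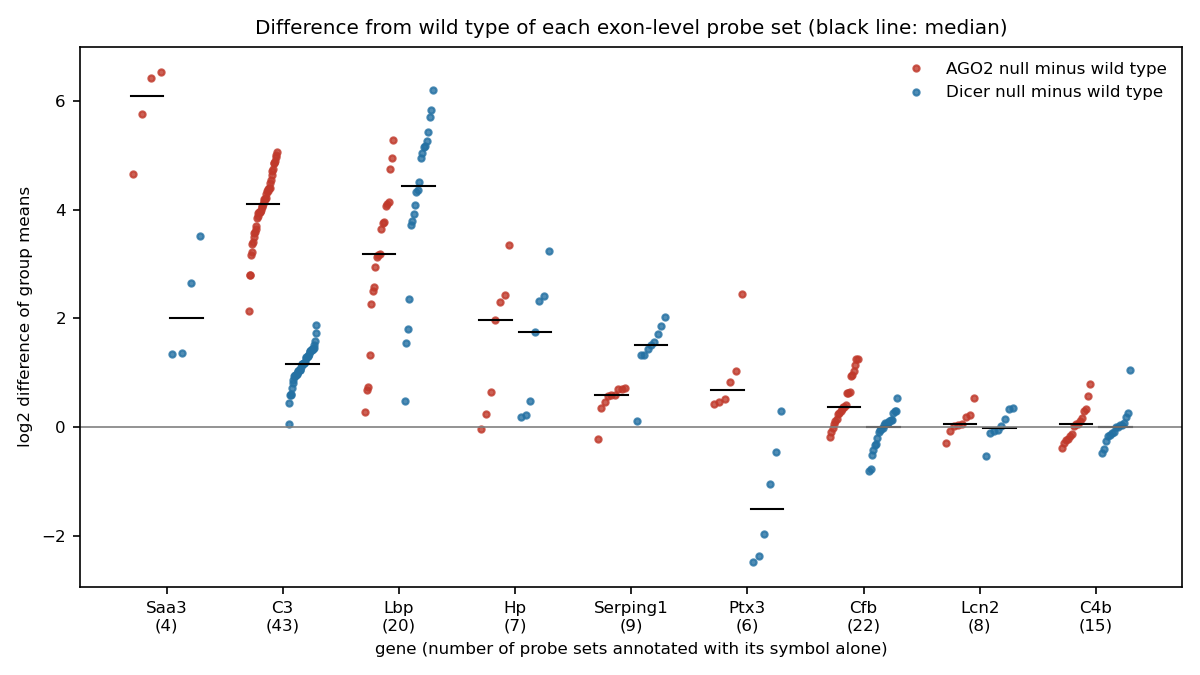
Log2 difference of group means from wild type (vertical axis) for each exon-level probe set of the 9 genes, in AGO2 null (red) and Dicer null (blue) cells, ordered by size within each gene; black lines mark medians. All probe sets of Saa3 and C3 lie above 0, those of Lbp and Hp spread from near 0 to over 3 units, and those of Lcn2 and C4b scatter around 0.

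The genes around these factors were described from pathway lists of 201 genes without the members, of which 153 had a gene-level row of their own. In these lists, higher and lower count the genes called by limma. In AGO2 null cells 33 were called higher and 17 lower (median difference 0.06), beside 14.5% higher and 10.6% lower and a median of 0.02 over all 14847 named genes. In Dicer null cells 20 were called higher and 42 lower, with a median of -0.04, beside 12.2% higher and 20.6% lower and a median of -0.03. Between the null lines 54 were called higher and 13 lower in AGO2 null cells, beside 21.7% and 8.63% of all named genes. Both comparisons with wild type share the same 3 wild-type samples.

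Among 31 other acute phase proteins, 4 were higher and 3 lower in AGO2 null cells, and 1 was higher and 7 lower in Dicer null cells. Trf, which encodes the iron carrier transferrin, was higher in both: 11.17, 11.25 and 11.28 in AGO2 null, 10.55, 10.55 and 10.58 in Dicer null and 7.41, 7.49 and 7.35 in wild-type cells, differences of 3.82 (adjusted p = 3.34e-08) and 3.15 (adjusted p = 2.47e-08). Steap4, a metalloreductase induced by inflammatory cytokines, was higher by 3.93 in AGO2 null cells (adjusted p = 4.47e-05), at 9.11, 10.18 and 9.12 against 5.51, 5.63 and 5.48, while its Dicer null difference of -0.16 was not called. Il1rn, the interleukin-1 receptor antagonist, was lower by 2.27 in AGO2 null (adjusted p = 1.95e-06) and by 4.59 in Dicer null cells (adjusted p = 2.89e-08). Mt2, a metallothionein induced by metals and glucocorticoids, was lower by 4.92 in Dicer null cells (adjusted p = 1.85e-07) and at -0.36, not called, in AGO2 null cells. Of the 31, 12.9% were called higher and 9.68% lower in AGO2 null cells, beside 14.5% and 10.6% of all named genes. In Dicer null cells 3.23% were called higher and 22.6% lower, beside 12.2% and 20.6%. The called genes thus lay in both directions, and no trait of acute phase genes is read from these shares. The median of the 31 was 0.02 in AGO2 null and -0.01 in Dicer null cells.

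Among 13 initiators of the classical and lectin routes, 2 were higher and 3 lower in AGO2 null cells, and 4 were lower in Dicer null cells. C1ra, a protease of the first complement component, was higher by 0.98 in AGO2 null (adjusted p = 0.000928) and lower by 0.52 in Dicer null cells (adjusted p = 0.0132). C2, the partner of C4, was higher by 0.80 in AGO2 null cells (adjusted p = 0.000648), with 6.35, 6.24 and 6.14 against 5.46, 5.33 and 5.54, and at -0.02 in Dicer null cells. Colec12, a collectin scavenger receptor, read 5.16, 5.19 and 5.52 in Dicer null against 10.32, 10.05 and 10.19 in wild-type cells. That difference was -4.90 (limma adjusted p = 6.41e-08), and the AGO2 null difference of Colec12 was -0.42 (limma adjusted p = 0.0272). Masp1, of the same list, was lower by 1.18 in AGO2 null cells (limma adjusted p = 0.00124). In Dicer null cells Masp1 was lower by 0.53 (limma adjusted p = 0.0343). None of the 6 alternative and terminal components was called by limma in AGO2 null cells, and 0 of 6 had an unadjusted p under 0.05. In Dicer null cells 1 of them was called lower, C8g, which encodes a chain of the terminal component C8. For C8g, Dicer null against wild type, the difference was -0.28 (adjusted p = 0.0202). The call was lost without Dicer null replicate 1 or 2 (-0.26 and -0.27) or wild-type replicate 1 or 2 (-0.24 and -0.25), and with quantile normalization or median centring. None of the 6 complement receptors was called by limma in either line, and 1 was higher at an unadjusted p under 0.05 in each.

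Among 10 complement regulators, 4 were higher and 1 lower in AGO2 null, and 2 higher and 2 lower in Dicer null cells. Cd55, which speeds the decay of C3-cleaving enzymes on the cell's own surface, read 9.57, 9.48 and 9.57 in AGO2 null, 10.51, 10.51 and 10.63 in Dicer null and 8.25, 7.71 and 8.17 in wild-type cells. It was higher by 1.50 (adjusted p = 0.000181) and 2.51 (adjusted p = 5.21e-06), the order of Serping1 and Lbp. Clu, encoding clusterin, an inhibitor of the terminal complex, was higher by 0.85 in AGO2 null (adjusted p = 1.39e-05) and lower by 0.87 in Dicer null cells (adjusted p = 5.93e-06). Cfi, the protease that inactivates C3b, was higher by 0.28 (adjusted p = 0.00313) and 0.72 (adjusted p = 1e-05).

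**Figure D3:**
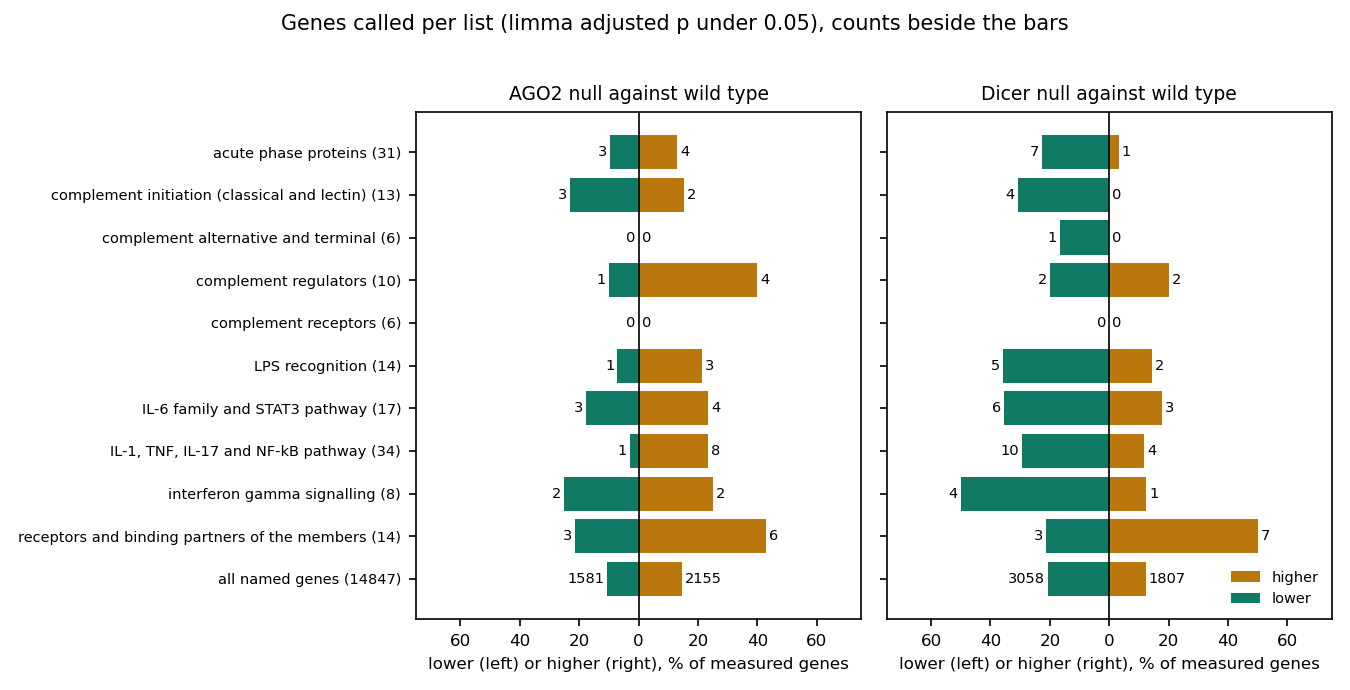
Share of the measured genes of each list called higher (right, ochre) or lower (left, green) than in wild-type cells, in percent, by limma at an adjusted p under 0.05, with the counts beside the bars, for AGO2 null (left panel) and Dicer null cells (right panel). The lowest bars give all 14847 named genes, of which 2155 were higher and 1581 lower in AGO2 null and 1807 higher and 3058 lower in Dicer null cells.

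The inducing pathways were listed separately. Of 17 genes of the interleukin-6 family and STAT3 pathway, 4 were higher and 3 lower in AGO2 null, and 3 higher and 6 lower in Dicer null cells. For Il6, AGO2 null against wild type, the values were 4.26, 6.79 and 4.99 against 3.32, 3.41 and 3.57, a difference of 1.92 (adjusted p = 0.0442). That call was lost on leaving out AGO2 null replicate 3 (difference 2.10) or wild-type replicate 1, 2 or 3 (1.86, 1.90 and 1.98), in a fit of only the 6 samples compared, and with the offset of 50. The highest Il6 value, 6.79, was that of AGO2 null replicate 2, and the difference from wild type is smaller without that sample. Il6 in Dicer null cells differed from wild type by 0.00. Lif, a cytokine of the same family, was higher by 1.37 in AGO2 null cells (adjusted p = 0.00204). For Lif, Dicer null against wild type, the difference was 0.76 (adjusted p = 0.0226), a call lost without Dicer null replicate 1 or 2 (0.71 and 0.68) or wild-type replicate 1 or 2 (0.67 and 0.70), and the null lines were not called different (adjusted p = 0.0529).

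Not all receptors of this family are described. The 3 named here were listed for their large called differences from wild type in Dicer null cells. Il6st, the shared signalling chain gp130, was lower by 1.19 there (adjusted p = 5.67e-05) and Osmr, the oncostatin M receptor, by 1.89 (adjusted p = 2.89e-06), while Lifr, the LIF receptor, was higher by 2.08 (adjusted p = 6.8e-06). In AGO2 null cells the differences of Il6st, Osmr and Lifr, 0.00, -0.04 and 0.32, were not called. Between the null lines the 3 differed by 1.19 (adjusted p = 8.56e-05), 1.85 (adjusted p = 5.68e-06) and -1.76 (adjusted p = 2.85e-05). Jak1, the kinase that these receptors engage, was lower in both, by 0.64 (adjusted p = 6.63e-05) and 1.11 (adjusted p = 1.68e-06).

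Of 34 genes of the interleukin-1, tumour necrosis factor, interleukin-17 and NF-kappa-B pathway, 8 were higher and 1 lower in AGO2 null cells (median difference 0.18), and 4 were higher and 10 lower in Dicer null cells (median difference -0.08). Between the null lines 19 were higher and 1 lower in AGO2 null cells. Il1rap, the accessory chain of the interleukin-1 receptor, was higher by 2.35 in AGO2 null cells (adjusted p = 0.000178), with 8.86, 9.70 and 8.94 against 6.85, 6.66 and 6.93. Il1r1, the binding chain, read 9.47, 10.35 and 9.47 in AGO2 null, 7.13, 7.32 and 7.24 in Dicer null and 9.81, 9.80 and 9.88 in wild-type cells. It was lower by 2.60 in Dicer null cells (adjusted p = 7.37e-05); for Il1r1, AGO2 null against wild type, the difference of -0.06 was not called, but without AGO2 null replicate 2 it was -0.36 and called. Tnfaip3, which encodes the NF-kappa-B target and inhibitor A20, was higher by 1.53 in AGO2 null cells (adjusted p = 0.00358), with 7.88, 8.77 and 7.70 against 6.59, 6.60 and 6.57. Il33, an interleukin-1 family cytokine, was higher by 2.34 in Dicer null cells (adjusted p = 1.03e-05) and by 0.65 in AGO2 null cells (adjusted p = 0.0135), the latter call being lost in a fit of only the 6 samples compared.

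AGO2 null replicate 2 was the highest of its group for Il6, Steap4, Il1rap, Il1r1 and Tnfaip3. Over the pathway lists, 10 of 153 genes lay more than 0.5 above both other AGO2 null samples in it, against 0 or 1 in each of the other 8 samples. Without it 52 pathway genes were called in AGO2 null cells, 34 higher and 18 lower. Saa3 without it differed from wild type by 5.95 and C3 by 4.11, so these 2 differences were as large in the other samples.

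**Figure D4:**
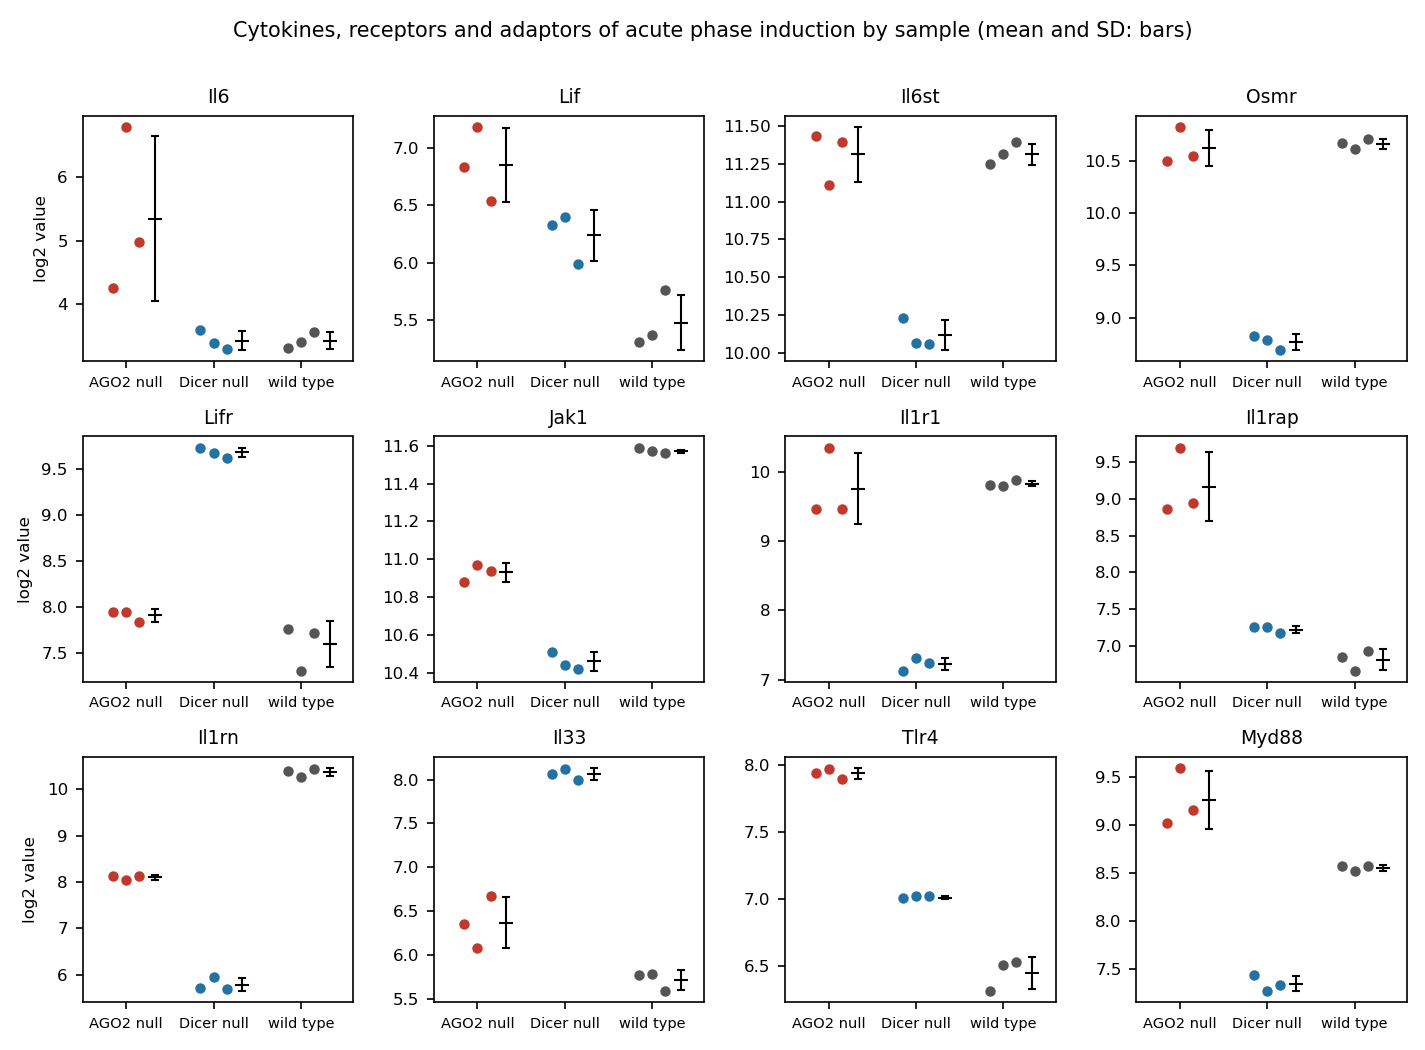
Log2 level (vertical axes, each with its own range) by sample of 12 cytokines, receptors and adaptors that act upstream of acute phase genes, with mean and SD as bars. Il6 in AGO2 null cells spans 4.26 to 6.79, Il6st, Osmr and Il1r1 are lowest in Dicer null cells, Lifr and Il33 are highest there, and Tlr4 is higher in both null lines than in wild-type cells.

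Of 14 genes of lipopolysaccharide recognition, the route in which Lbp acts, 3 were higher and 1 lower in AGO2 null, and 2 higher and 5 lower in Dicer null cells. Tlr4, the receptor to which Lbp delivers its cargo, read 7.94, 7.97 and 7.90 in AGO2 null, 7.01, 7.02 and 7.02 in Dicer null and 6.31, 6.51 and 6.53 in wild-type cells. It was higher by 1.49 (adjusted p = 4.03e-06) and 0.56 (adjusted p = 0.00038), with AGO2 null above Dicer null cells, the reverse of Lbp between the null lines. Myd88, the adaptor below it, was higher by 0.70 in AGO2 null (adjusted p = 0.00832) and lower by 1.20 in Dicer null cells (adjusted p = 0.00034).

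Of 8 genes of interferon gamma signalling, which induces Cfb, C4b and Serping1 in many cell types, 2 were higher and 2 lower in AGO2 null, and 1 higher and 4 lower in Dicer null cells. Stat2 was lower by 1.16 in AGO2 null (adjusted p = 2e-05) and by 1.57 in Dicer null cells (adjusted p = 2e-06), and Irf9, its partner in interferon signalling, by 0.70 (adjusted p = 0.000644) and 2.0 (adjusted p = 1.1e-06). Ifngr2, a receptor chain, was higher by 0.90 in AGO2 null cells (adjusted p = 0.000333), and Ifngr1, the other chain, was lower by 1.06 in Dicer null cells (adjusted p = 5.23e-05).

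Of 14 genes listed as receptors and binding partners of the members, 6 were higher and 3 lower in AGO2 null, and 7 higher and 3 lower in Dicer null cells. Selp, P-selectin, which Ptx3 binds, was higher by 2.11 (adjusted p = 2.57e-06) and 1.97 (adjusted p = 1.71e-06). Tnfaip6, the hyaluronan-organising protein that Ptx3 joins in the matrix, was lower by 1.03 in AGO2 null cells (adjusted p = 0.000233), where Ptx3 was higher, and at 0.19, not called, in Dicer null cells, where Ptx3 was lower. Slc22a17, a receptor for lipocalin 2, was lower by 0.53 (adjusted p = 0.00174) and 0.63 (adjusted p = 0.000395), whereas Lcn2 itself differed little. The list also held Slc40a1, the iron exporter ferroportin, which is not itself a receptor or binding partner of a member. Slc40a1 was among the genes higher in both lines, by 0.94 (adjusted p = 0.000744) and 2.13 (adjusted p = 4.4e-06). Lrp1, a scavenger receptor, was lower by 1.59 in Dicer null cells (adjusted p = 1.09e-06).

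Markers of other cells were read beside these results; in RNA of a whole culture, fewer cells of a type and less RNA per cell cannot be told apart. Of 15 fibroblast markers, 9 were called higher and 1 lower in AGO2 null, and 1 higher and 10 lower in Dicer null cells, with Col1a1 at 10.04, 8.95 and 9.90 and Thy1 at 10.40, 6.24 and 9.40 in AGO2 null, Dicer null and wild-type cells. Most markers of the labelled cell type were thus lower in the Dicer null line than in wild-type cells. All 9 measured mesothelial markers were higher in both null lines, by medians of 2.19 and 2.70, and their mean log2 level was 10.07 to 10.11 in AGO2 null, 10.59 to 10.61 in Dicer null and 7.94 to 7.98 in wild-type samples. Between the null lines the median difference of the 9 was 0.01 and 5 were not called, and the gap in the mean lay largely in the keratin Krt18 (AGO2 null minus Dicer null -3.71). Without Krt18, left out after its values were seen, the mean of the other 8 was 10.35 to 10.39, 10.46 to 10.48 and 8.04 to 8.07. The part of these markers in the differences of the members was not tested. Of 12 hepatocyte markers, which matter since the liver is the main source of most members, 2 were higher and 1 lower in AGO2 null cells and 1 was higher and 1 lower in Dicer null cells; Alb was at 5.25, 5.18 and 5.19, not called. The mean hepatocyte level over the 12 genes was 5.32 to 5.43 in AGO2 null, 5.24 to 5.29 in Dicer null and 5.48 to 5.57 in wild-type samples. The higher wild-type mean came with 1 gene, the retinol carrier Rbp4, at 6.12, 5.64 and 9.10, and without it, again left out after its values were seen, the other 11 averaged 5.25 to 5.36, 5.22 to 5.26 and 5.17 to 5.25. Of 13 macrophage and leukocyte markers, 1 was lower in AGO2 null cells, and 1 was higher and 2 lower in Dicer null cells. Cd68 was lower in both null lines, at 7.07, 7.09 and 7.84. Csf1r was higher by 1.11 in Dicer null cells (limma adjusted p = 2.82e-05). Of 11 neutrophil markers, 0 were called in AGO2 null cells. In Dicer null cells 1 was higher, Mmp8, by 0.96 (limma adjusted p = 0.000301). The defining leukocyte marker Ptprc, at 3.91, 3.87 and 3.87, was not called. The defining neutrophil marker S100a8, at 2.67, 2.76 and 2.80, was not called, and both lay far below the median of all rows.

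The genes whose pattern was most like each member were taken from the other rows whose range of group means was not far below the member's (0.5 of it or more), by Pearson's r over the 9 samples. These samples are 3 genotypes, so r mainly reflects the 3 group means, and it is given without a p-value. For C3, taken as its exon-level medians, the highest was the gene-level row of Saa3 (r = 0.998 among 482 rows), followed by Xdh and Avpr1a. Only gene-level rows were candidates, so C3 could not be listed for Saa3, although this r exceeds those of the genes listed. Among the candidate rows, those most like Saa3 were Popdc3 and Gabra3 (both 0.984 among 186 rows) and Slc4a4 (0.982). For Lbp they were Itga3, Pcsk5 and Rbpms (0.997, 0.996 and 0.995), for Hp Sema3e, Chn2 and Rtn1 (0.997, 0.996 and 0.995), and for Ptx3 Plcb4, Gbe1 and Anxa2 (0.997, 0.996 and 0.996). For Serping1 Ppp1r3b, Tnnt2 and Il22ra1 all reached 0.994, and for Cfb Larp1b, Wdr1 and Bud31 reached 0.992, 0.989 and 0.987. Lcn2 and C4b, with ranges of group means of 0.15 and 0.1, had no pattern beyond their spread to be matched.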

How the data were processed

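Affymetrix exon array values of 9 arrays of mouse embryonic fibroblasts, 3 each of AGO2 null, Dicer null and wild type, were deposited by the authors as log2 values per gene-level row (23332) and per exon-level probe set (229581), as read from the values themselves. The submitters' processing notes name the build mm8; the background correction, normalization and filters are not given in the sources at hand here. Rows were named from the platform annotation, with symbols updated through RefSeq (GRCm38.p6, names and promoter sequences only). Of gene-level rows, 14996 carried 1 symbol, 1019 several and 7317 none; of probe sets, 209279, 4446 and 15856.

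The values were used without further normalization. Groups were compared with limma 3.58.1 (lmFit, eBayes without trend; R 4.3.3) over all rows and all 9 samples, with calls made at an adjusted p (Benjamini-Hochberg) below 0.05; the fit was tested on simulated data. Where a gene had several rows, the row with the highest mean stood for it. Tables and plots were made with Python 3.11.15, pandas 2.3.3 and matplotlib 3.10.9. The text names all members and takes its other genes from those a rule listed: up to 2 genes with the largest called difference in each direction of each pathway list and comparison, the defining and most different markers, Ago2, Dicer1, the Saa and C4 paralogs, and the 3 genes most like each member. Members and lists were chosen with earlier results of these data known. Same-numbered samples did not deviate together (r from -0.0973 to 0.191), so the numbers were not treated as pairs. Alternatives tried were quantile normalization, median centring, a trended variance, fits of 6 samples, the number as a block, a filter on dim rows, an offset of 50, exon medians, another choice of row, and leaving out each sample.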

Additional observations from a re-analysis of the deposited data

How the results depend on the processing

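The 9 counts of calls stayed within 1.5 times their values under every alternative run. Leaving out 1 sample gave 6 members called in AGO2 null against wild type, 5 in Dicer null against wild type and 5 between the null lines each time, the main values, 80 to 87, 78 to 83 and 83 to 86 member probe sets (main 89, 80 and 86), and 41 to 52, 50 to 55 and 56 to 69 pathway genes (main 50, 62 and 67). Over the other alternatives the ranges were 5 to 6, 5 and 4 to 5 members, the lower values from the filter on dim rows, 81 to 91, 77 to 82 and 79 to 86 probe sets, and 38 to 52, 57 to 64 and 61 to 68 pathway genes. With the replicate number as a block, 6, 5 and 5 members, 87, 79 and 86 probe sets and 45, 60 and 67 pathway genes were called. Of 342 alternative values of the members' differences, 303 stayed within the spread between replicates (1 SD) and 38 moved further. The sign changed in 14, over 6 differences of C4b, Lcn2, Hp and Cfb whose reported size was at most 0.1. The 1 of these whose reported size exceeded its SD was Cfb, Dicer null against wild type, which was 0.0837 by the median of its exon probe sets and -0.0971 by its gene-level row, and the cause was not tested. Of 2901 alternative values of 228 differences of other named genes, 134 lost the call, 41 gained one and 59 changed sign, the 59 all among differences not called in the reported fit and of at most 0.14 in size, and 30 differences lost the call at least once. With no detection measure, signal over background could not be judged for low rows such as Lcn2.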

Other observations

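Markers of further cell types were measured in the same samples. Of 11 epithelial markers, 2 were higher in AGO2 null cells and 1 in Dicer null cells, among them the keratin Krt14, at 7.15, 7.63 and 6.97 in AGO2 null against 5.55, 5.64 and 5.59 in wild-type cells (limma adjusted p = 0.00035), while the defining marker Epcam, with a difference of 0.02, was not called. Of 7 adipocyte markers, 1 was higher in AGO2 null cells and 2 were lower in Dicer null cells. Pparg, the adipocyte regulator, was higher by 0.60 in AGO2 null cells (limma adjusted p = 0.00083). Of 10 endothelial markers, 1 was higher and 1 lower in AGO2 null cells and 2 were lower in Dicer null cells. Erg, an endothelial transcription factor, was lower by 1.78 in AGO2 null cells (limma adjusted p = 1.22e-05) and by 2.10 in Dicer null cells (limma adjusted p = 2.49e-06). Kdr went the other way in AGO2 null cells, higher by 1.25 (limma adjusted p = 0.00517), and its Dicer null difference of -0.12 was not called. The defining marker Pecam1 stood at 5.48 in all 3 groups and was not called. Among mesothelial markers the keratin Krt18 was higher by 0.59 in AGO2 null and by 4.30 in Dicer null cells (limma adjusted p = 0.00536 and 1e-07), and Krt19 by 3.90 and 3.52 (limma adjusted p = 5.27e-06 and 4.07e-06). Whether these differences bear on the acute phase and complement genes was not tested.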
